A study of Homo sapiens with 15 samples.

Results

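The comparison set UKE-1 cells given TNF-α together with micheliolide and ruxolitinib against UKE-1 cells given TNF-α alone. UKE-1 is a human leukaemia line grown from a patient whose myeloproliferative neoplasm had progressed, and it carries the activating JAK2 mutation of that disease. It is 1 established line, so the results describe 1 genetic background. The 6 libraries of these groups, 3 for each, come from a series of 15 that also holds 3 libraries each of untreated cells, of TNF-α with micheliolide (MCL in the labels) and of TNF-α with ruxolitinib. All groups except the untreated one share the TNF-α stimulation, which the design text describes as a model of an inflammatory surrounding, and RNA was taken 3 h after treatment. Neither drug's dose, nor for how long TNF-α was present, nor whether replicates are separate cultures, is stated in the labels, so p-values measure only how far these libraries spread, and that spread may be technical. The comparison covers the genes with enough counts to test by a minimum of 10 counts set by group, 16146 of the 58735 in the table. No measured difference between the groups was used to choose these 16146. Many of the genes named below were picked from them by their measured change.

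TNF-α binds its receptor and releases the transcription factor NF-kB from its inhibitors, which switches on genes for cytokines, chemokines, adhesion molecules and survival factors, together with inhibitors that later switch the pathway off. Ruxolitinib blocks the kinases JAK1 and JAK2, which pass signals from cytokine receptors to the STAT transcription factors, and in JAK2-mutant cells this pathway is active without cytokine. Micheliolide is a sesquiterpene lactone whose reactive group binds cysteines of proteins. Compounds of that kind are known to activate NRF2, the transcription factor of the antioxidant response, and to hinder NF-kB. Heat shock factors and ATF4 drive 2 further stress programmes, the first for misfolded proteins and the second for lack of amino acids and other stresses that slow translation.

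Levels are given as CPM, counts scaled to a common library size after TMM normalization, and differences as log2 changes ± their standard error. An adjusted p is that of edgeR's quasi-likelihood test with the Benjamini-Hochberg correction. Genes under 0.05 are said to have passed. Library totals lay between 15476399 and 18035604 counts, and replicates differed little, with a biological coefficient of variation of 0.0404, so small changes passed. On the first principal component, with 46.5% of the variance, the 3 libraries of both drugs lay between 43.75 and 45.31 and all other libraries at or below 7.58. Of the 12 myeloid and progenitor markers checked, 10 could be tested, and the summed level of the list was 2460 to 2520 CPM with TNF-α and 1560 to 1630 CPM with both drugs. In bulk RNA, fewer cells of a type and less RNA per cell cannot be told apart. GATA2 and SPI1, described below as lineage factors, are members of that list, at 551 and 218 CPM with TNF-α and 128 and 77 CPM with both drugs, while CD34 was at 1250 and 983 CPM and PTPRC at 348 and 325 CPM. The T cell list summed to 44.3 to 48.5 and 25.4 to 29.6 CPM, most of it CD4 and CD3D, with 4 of 5 tested members lower and CD8B at 0. The B cell list summed to 35 to 39.7 and 28.7 to 36.7 CPM, most of it CD79A, with MS4A1 at 0. The epithelial list summed to 125 to 135 and 101 to 108 CPM, all of it KRT18 and KRT8, with EPCAM, CDH1 and KRT19 at 0. The stromal list stayed at or below 1.8 CPM in every library of both groups, most of it PDGFRB, with DCN, THY1 and LUM at 0. Of the 216 genes examined by name, 54 share exon positions with another tested gene, and without a statement on strand their reads cannot be told apart. Among those described here are OSGIN1, MAFG, SQSTM1, SLC7A11 and its antisense gene, DNAJB1, HSP90AA1, DDIT3, TNFAIP3, IL18R1, IKBKE, IRF1, CIITA, IFNGR2, CISH, BCL2L1, CCND1, SH2B3, JUNB, GFI1B, IKZF1, TAL1 and GP1BA.

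Most tested genes differed between the groups. With both drugs 4110 genes (25.5%) passed as higher and 4730 (29.3%) as lower, 8840 in either direction (54.8%). All 3 libraries with both drugs lay above all 3 with TNF-α in 28.4% of genes and below them in 32.2%. Scaling by library totals instead of TMM gave 5091 and 3900, which moved the higher share of the calls from 46.5% to 56.6%. Changes of at least 2-fold numbered 632 higher (3.91%) and 1354 lower (8.39%). Among the largest, over 8-fold, 27 were higher and 124 lower. The median log2 change of all tested genes was -0.03, and 30 gene lists with 919 entries, 819 of them tested, describe what moved. The counts of each list are to be read beside the 25.5% higher and 29.3% lower of all tested genes. The 10 tested genes nearest to the count minimum had means of 4.33 to 9.67 counts with TNF-α and 7 to 11.3 with both drugs, and the 10 nearest genes left out had 4.33 to 9.67 and 4 to 10.

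**Figure D1:**
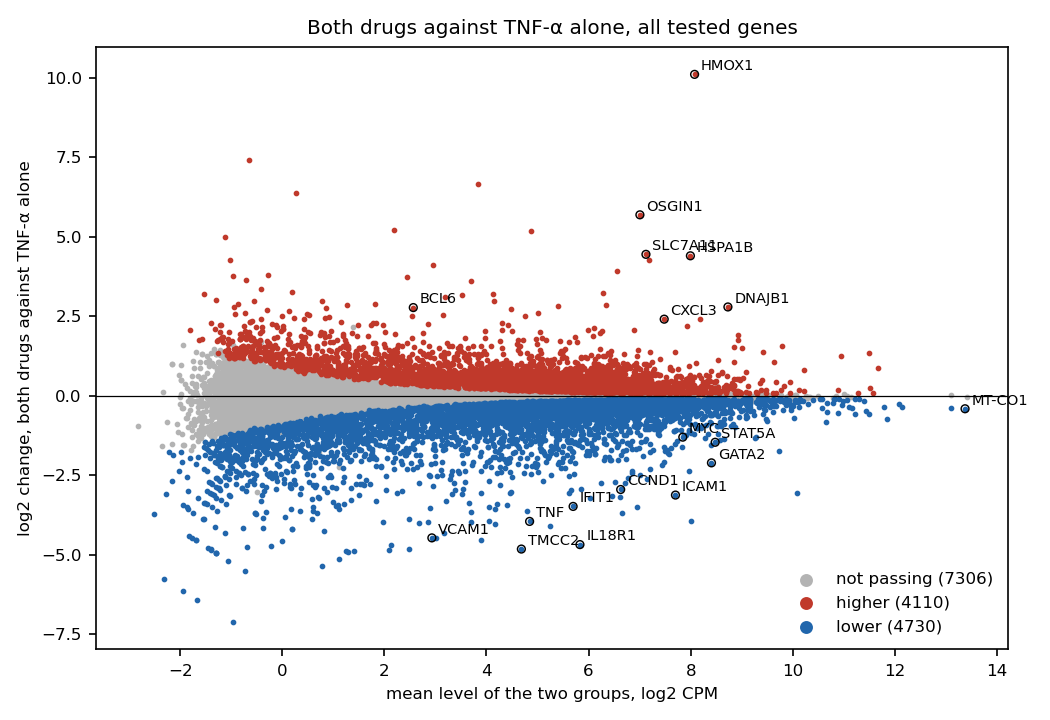
Log2 change with both drugs against TNF-α alone (vertical axis) by the mean level of the groups in log2 CPM (horizontal axis), 1 point for each of the 16146 tested genes; red points passed as higher (4110), blue as lower (4730) and grey did not pass. HMOX1 stands alone at the top at 10.11, and the genes below -4 include IL18R1, TMCC2 and VCAM1.

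The strongest rises included genes of the antioxidant response. HMOX1 (ENSG00000100292, chr22:35380361-35394214, plus strand, hg38), whose product, heme oxygenase, breaks haem down, was at 0.526, 0.300 and 0.621 CPM in the libraries with TNF-α and at 529, 569 and 519.7 CPM in those with both drugs. The groups lay far apart, with a log2 change of 10.11 ± 0.11 (adjusted p = 1.13e-31), the highest of the genes named. OSGIN1, an oxidative stress-induced growth inhibitor, went from 4.6, 5.11 and 4.84 to 241, 266 and 249 CPM (log2 change 5.70 ± 0.07, adjusted p = 9.74e-57). SLC7A11, which imports cystine for glutathione synthesis, went from 11.4, 12.4 and 12.7 to 263, 263 and 274 CPM (log2 change 4.45 ± 0.06, adjusted p = 6.23e-58). In each of these genes all 3 libraries with both drugs were above all 3 with TNF-α, which the rule that named them required.

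Of 43 tested NRF2 target genes and core regulators, 31 were higher, 3 lower and 9 did not pass, with a median log2 change of 0.73 against -0.03 over all tested genes. A fit of only the groups compared gave 5 lower. At least 2-fold higher were 18 of them. The effectors of glutathione and thioredoxin chemistry were among them. GCLM, the regulatory subunit of glutamate-cysteine ligase, which starts glutathione synthesis, went from 10.8, 12.8 and 11.6 to 179, 185 and 168 CPM (log2 change 3.91 ± 0.07, adjusted p = 3.68e-49), and its catalytic partner GCLC had a log2 change of 1.23. TXNRD1, thioredoxin reductase, went from 199.8, 207 and 207 to 772, 762 and 785 CPM, a log2 change of 1.92 ± 0.03. NQO1, a quinone reductase, had a log2 change of 3.61 ± 0.14, SRXN1, which repairs oxidised peroxiredoxins, of 3.73 ± 0.25, and TRIM16L of 4.11 ± 0.21.

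Iron handling and the regulators of the pathway moved as well. The ferritin genes FTL and FTH1, whose products store iron, had log2 changes of 1.26 and 1.51, with FTL going from 1166 to 2790.3 CPM. MAFG, a small MAF protein that pairs with NRF2 on DNA, went from 89.7, 86.5 and 82.4 to 394, 418 and 388 CPM (log2 change 2.21 ± 0.04). NFE2L2, which encodes NRF2 itself, rose by 0.73 on the log2 scale, its cytoplasmic brake KEAP1 by 0.60 and the competing repressor BACH1 by 0.98. The members that fell were the export pump ABCC1 (log2 change -0.40), AKR1B1 (-0.23) and the peroxiredoxin PRDX1 (-0.17), named after their values were seen. The non-coding member LUCAT1, named after its value was seen, had 1 count over the 3 TNF-α libraries and 127 over the 3 with both drugs. It could not have met the count minimum through its TNF-α libraries. Scaled to library size the counts give a ratio of 114, for which the exact 95% interval, of counting error only, ran from 20.1 to 4530. Spread between libraries beyond counting error is not in that interval.

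The promoter windows of GCLM and TXNRD1 are shown because both genes rose and both hold the antioxidant response element core, TGACNNNGC on either strand. Windows are from RefSeq (GRCh38.p14) and run from 250 bases before to 50 bases after the start of the gene, read in the direction of the gene, with matches in capitals. A match says that these letters are there, not that a factor binds them, and one base may belong to matches of several motifs. The GCLM window is chr1:93909381-93909680, minus strand, and the TXNRD1 window is chr12:104215529-104215828, plus strand:
GCLM: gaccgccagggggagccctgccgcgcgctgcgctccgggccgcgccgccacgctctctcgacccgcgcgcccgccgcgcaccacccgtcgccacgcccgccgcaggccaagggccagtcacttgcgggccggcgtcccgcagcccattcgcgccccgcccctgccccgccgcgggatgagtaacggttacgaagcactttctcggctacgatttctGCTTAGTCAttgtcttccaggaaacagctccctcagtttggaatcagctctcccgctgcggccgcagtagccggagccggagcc
TXNRD1: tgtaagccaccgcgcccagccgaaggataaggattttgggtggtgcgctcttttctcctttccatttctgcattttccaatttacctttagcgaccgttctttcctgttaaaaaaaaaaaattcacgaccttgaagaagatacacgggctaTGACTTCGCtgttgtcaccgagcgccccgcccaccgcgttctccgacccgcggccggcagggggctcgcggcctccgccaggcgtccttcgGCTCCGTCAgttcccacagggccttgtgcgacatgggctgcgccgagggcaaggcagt
Of 16146 tested genes 10950 had a window. The core was in 10 of the 33 NRF2 list genes with a window (30.3%), against 15.4% of all tested genes, 17.1% of genes at least 2-fold higher and 14.2% of genes at least 2-fold lower. It was also in 34.6% of the ATF4 list and 27.6% of the heat shock list. In GCLM the match began 34 bases before the start, and in TXNRD1 there was 1 at 99 and 1 at 8 bases before it.

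**Figure D2:**
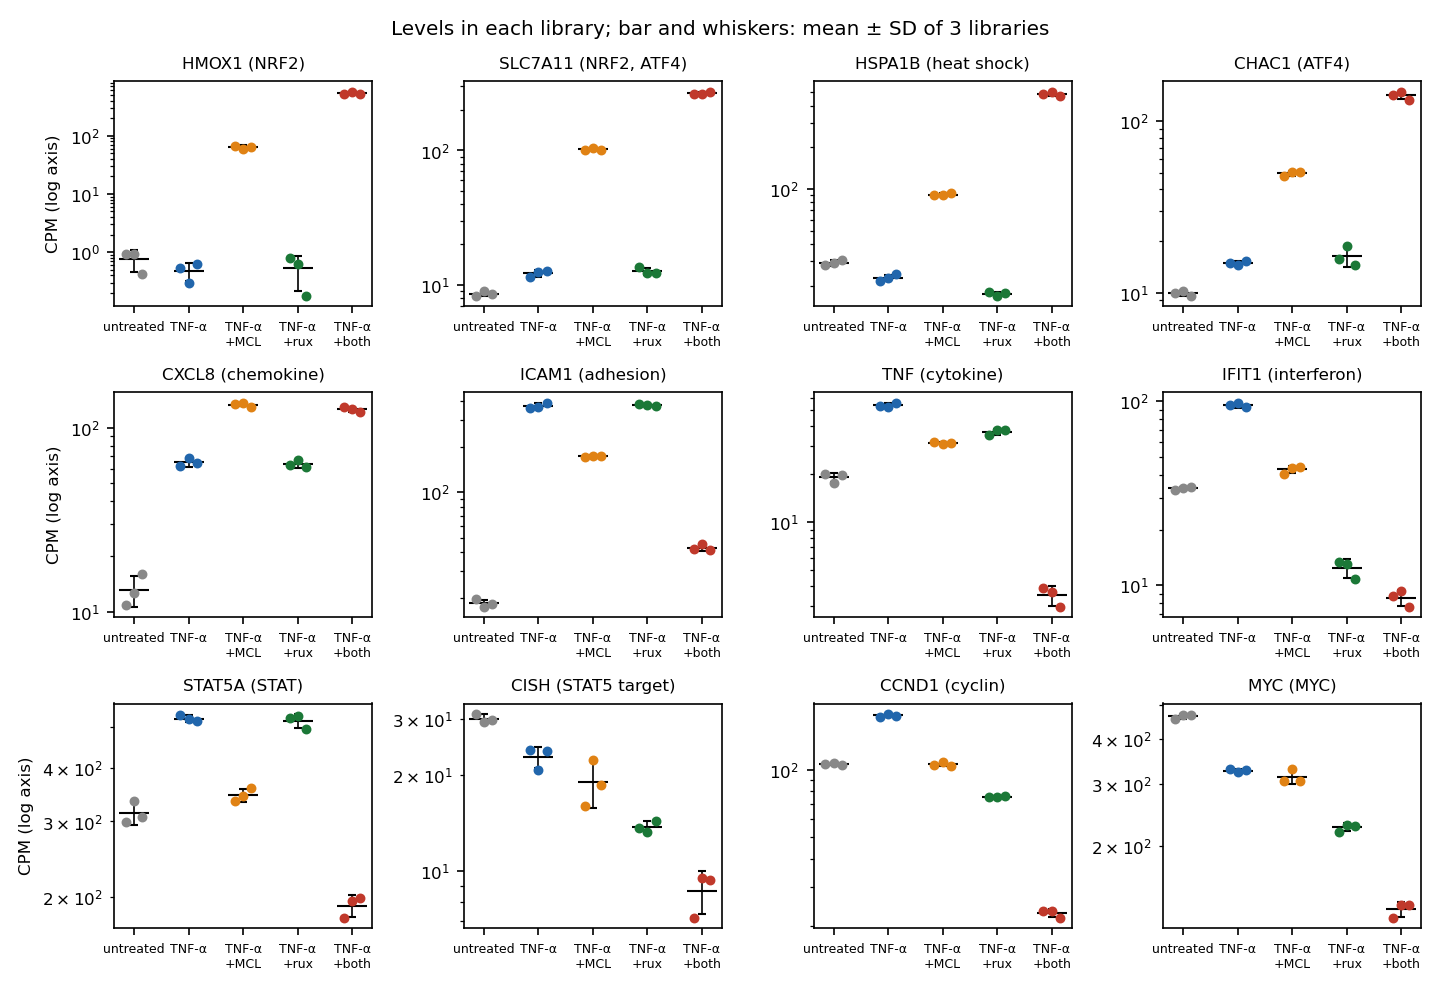
CPM on a log axis in every library of the 5 groups for 12 genes, each point 1 library and each bar with whiskers the mean ± SD of 3 libraries. The libraries with both drugs (red) are the highest of all groups for HMOX1, SLC7A11, HSPA1B and CHAC1 and the lowest for TNF, STAT5A, CCND1 and MYC, while CXCL8 stood at about the same level with MCL as with both drugs.

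Chaperones of the heat shock response rose with them. HSPA1B, an inducible HSP70, was at 21.8, 22.8 and 24.2 CPM with TNF-α and at 487, 504 and 470.2 CPM with both drugs (log2 change 4.41 ± 0.05, adjusted p = 1.09e-61). HSPA1A had a log2 change of 5.20 ± 0.29. It is a near-identical copy of HSPA1B on the same chromosome, so the division of reads between them is uncertain. The co-chaperone DNAJB1, which delivers clients to HSP70, went from 109, 107 and 104 to 731, 752 and 743 CPM (log2 change 2.80 ± 0.04), with the groups well separated. DNAJB4, of the same J-domain family, had a log2 change of 4.28 ± 0.06 and BAG3, a nucleotide exchange factor of HSP70, one of 2.86 ± 0.06.

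Of 32 tested heat shock factor targets and chaperones, 26 were higher, 3 lower and 3 did not pass, with a median log2 change of 0.49. With library totals 1 was lower. The abundant cytosolic chaperone HSP90AA1 went from 1633, 1635 and 1634 to 4029, 4071 and 4263 CPM, a log2 change of 1.33 ± 0.03, while its constitutive relative HSP90AB1 rose by 0.26 on the log2 scale. Log2 changes were 1.77 ± 0.03 in HSPH1, an HSP110 chaperone and -0.02 in HSF1, the factor itself (adjusted p = 0.76). The members that fell were HSPB1 (log2 change -0.19), FKBP4 (-0.15) and CCT2 (-0.11), named after their values were seen. Of 34 proteasome subunit and regulator genes 26 were higher and 0 lower, each by little, with a median log2 change of 0.16. PSMC6, an ATPase subunit, rose by 0.48 on the log2 scale and NFE2L1, the factor that induces proteasome genes, by 0.66.

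The window of HSPA8, the constitutive HSP70 with a log2 change of 0.89, is shown because it holds 2 heat shock elements, at 230 and 55 bases before the start (chr11:123062087-123062386, minus strand):
HSPA8: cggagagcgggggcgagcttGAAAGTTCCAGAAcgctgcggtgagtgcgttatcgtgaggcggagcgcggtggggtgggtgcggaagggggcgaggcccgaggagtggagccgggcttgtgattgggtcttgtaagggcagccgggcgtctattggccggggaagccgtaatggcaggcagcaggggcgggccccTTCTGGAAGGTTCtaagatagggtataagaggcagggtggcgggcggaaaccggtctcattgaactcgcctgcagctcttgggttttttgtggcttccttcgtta
The element was searched on both strands as GAA, TTC and GAA with 2 free bases between each. It was in 0.301% of tested genes with a window, in 0.251% of those at least 2-fold higher and in 4 of the 29 heat shock list genes with a window.

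Genes of ATF4 and the integrated stress response also rose. CHAC1, which breaks down glutathione, went from 14.9, 14.4 and 15.3 to 143, 148 and 134 CPM (log2 change 3.25 ± 0.07, adjusted p = 1.1e-46). The transcription factor gene ATF3 went from 6.31, 6.01 and 5.28 to 38.1, 37.3 and 41 CPM (log2 change 2.73 ± 0.10), and DDIT3, which encodes CHOP, from 6.05, 6.61 and 7.27 to 31.6, 31.1 and 35.7 CPM (log2 change 2.30 ± 0.11). No library with both drugs overlapped a TNF-α library in these 3 genes, which for CHAC1 the naming rule required. DDIT4, an inhibitor of mTORC1 signalling, rose by 2.82 on the log2 scale, SESN2, which senses leucine, by 2.03 and ATF4 itself by 0.77.

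Of 31 tested genes of that list, 24 were higher, 3 lower and 4 did not pass (median log2 change 0.60). Amino acid transport and synthesis were part of it, with log2 changes of SLC38A2 at 1.54, SLC3A2, the partner chain of SLC7A11, at 1.12, PHGDH of serine synthesis at 0.87 and CTH of cysteine synthesis at 1.57. The members that fell were the secreted factor GDF15 (log2 change -1.32), TXNIP, which binds thioredoxin (-1.15), and ATF5 (-0.45), the first and last named after their values were seen. Of 20 cytosolic aminoacyl-tRNA synthetase genes 11 were higher and 5 lower, with log2 changes of GARS at 0.79 and VARS at -0.35. The lower count was 2 with library totals and 3 with DESeq2 size factors, with DESeq2, with no count filter and without combo replicate 2. For the endoplasmic reticulum and its unfolded protein response, 15 of 27 genes were higher and 4 lower, or 2 lower with library totals. HERPUD1, which serves the degradation of misfolded membrane proteins, had a log2 change of 1.36 and the chaperone HSPA5 of 0.51.

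**Figure D3:**
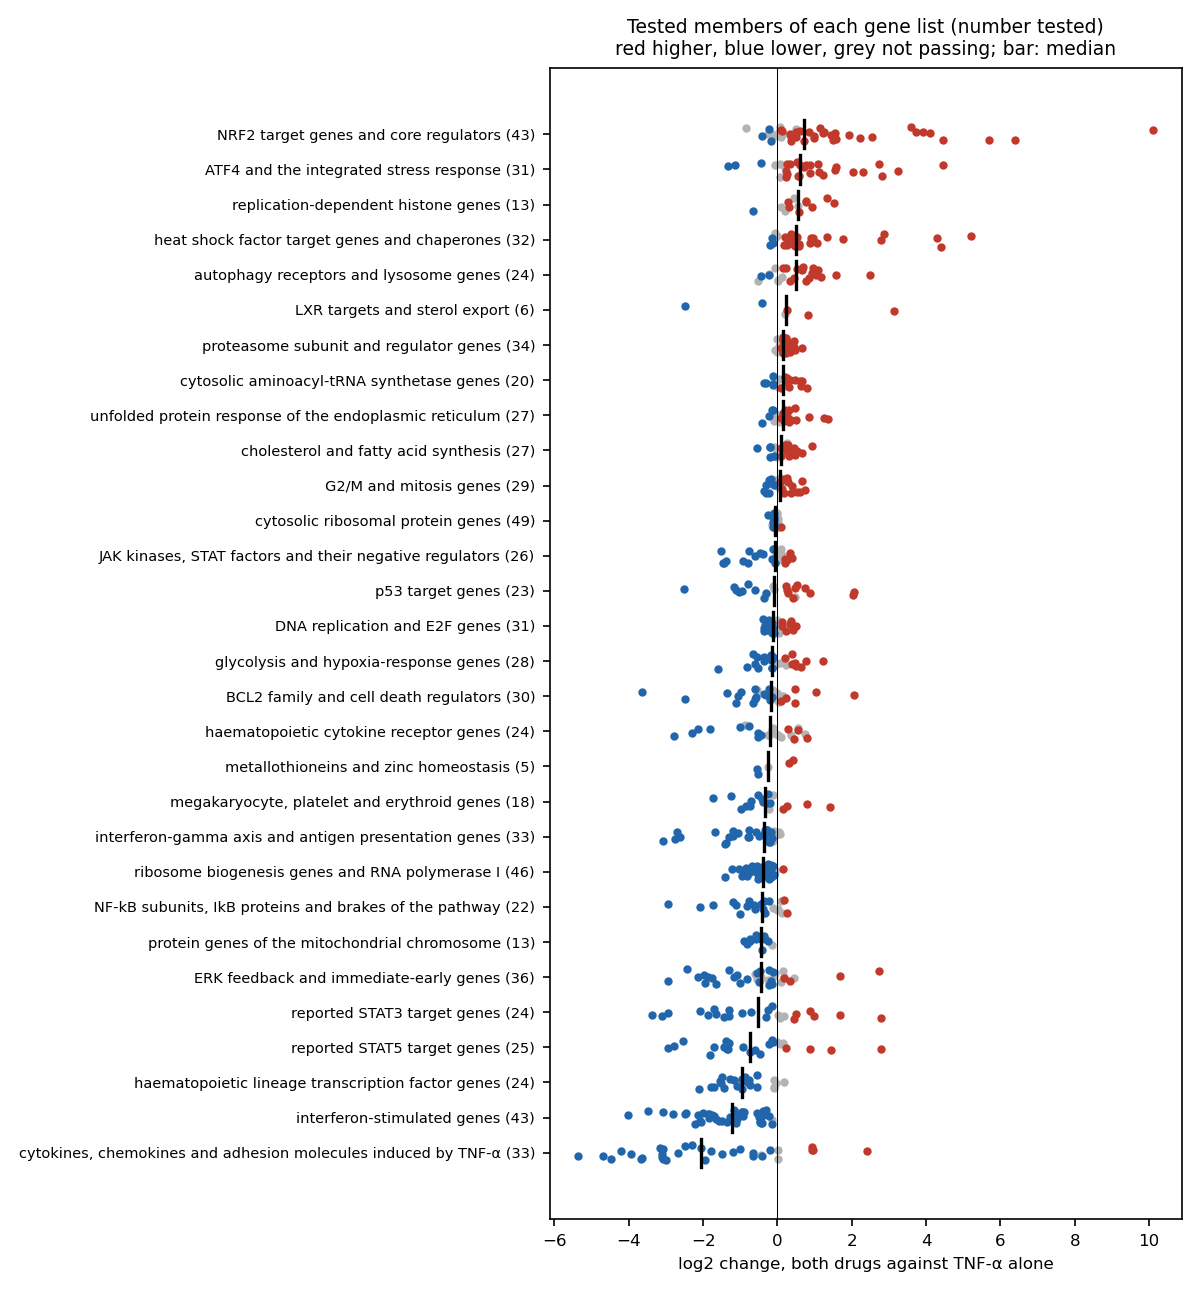
Log2 change with both drugs against TNF-α alone for every tested member of 30 gene lists, ordered by the median (black bar), with the number tested in brackets; red members passed as higher, blue as lower and grey did not pass. The NRF2, ATF4 and heat shock lists lie to the right with medians of 0.73, 0.60 and 0.49, and the list of TNF-α-induced cytokines and adhesion molecules lies farthest to the left at -2.07.

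Most genes for secreted and surface products of the TNF-α response fell. TNF, the cytokine itself (ENSG00000232810, chr6:31575567-31578336, plus strand), was at 53.4, 52.7 and 55.8 CPM with TNF-α and at 3.88, 3.66 and 2.95 CPM with both drugs (log2 change -3.95 ± 0.09, adjusted p = 3.6e-43). Its relatives LTB and LTA, the lymphotoxins, went from means of 187 and 24.1 CPM to 14.7 and 1.92 CPM, log2 changes of -3.67 ± 0.06 and -3.64 ± 0.15. In all 3 genes the level with both drugs was also below that of untreated cells, which had 19.1, 30.2 and 3.44 CPM (adjusted p = 3.39e-29, 2.32e-18 and 0.000125).

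Adhesion molecules and receptors fell with them. ICAM1, which holds leukocytes to endothelium, was at 363, 366 and 391 CPM and then at 42.1, 45.6 and 41.3 CPM (log2 change -3.12 ± 0.04, adjusted p = 3.71e-56). VCAM1, of the same function, went from 13.9, 14.1 and 15.8 to 0.637, 0.491 and 0.835 CPM (log2 change -4.46 ± 0.20). IL18R1 and IL18RAP, the 2 chains of the interleukin-18 receptor, went from means of 109.5 and 71.6 CPM to 4.29 and 4.25 CPM, where untreated cells had 4.99 and 3.21 CPM (adjusted p = 0.134 and 0.0182). TNFAIP2, an abundant TNF-α-induced transcript, fell from 1931, 1942 and 1964 to 233, 237 and 227 CPM. Untreated cells had 236 CPM, and the difference from them did not pass (log2 -0.02, adjusted p = 0.623).

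Of 33 tested cytokine, chemokine and adhesion genes induced by TNF-α, 26 were lower, 4 higher and 3 did not pass, with a median log2 change of -2.07. At least 2-fold lower were 22 of them. The 4 that rose were the neutrophil chemokines CXCL3, CXCL8 and CXCL2 and the T cell co-stimulator TNFSF9. CXCL3 went from 55.4, 57.5 and 56.3 to 294, 301 and 308 CPM (log2 change 2.41 ± 0.05, adjusted p = 8.95e-49) and CXCL8 from 62, 68.6 and 64 to 129, 126 and 122 CPM (log2 change 0.95 ± 0.05). CXCL2 had a log2 change of 0.94 and TNFSF9 of 0.92, both named after their values were seen. The chemokines for T cells went the other way, CXCL10 from 222, 230.2 and 232 to 113, 111 and 116 CPM (log2 change -1.01 ± 0.04) and CXCL11 with a log2 change of -1.48. TNFSF18, a ligand of the receptor GITR and outside the list, rose from 4.47, 4.32 and 3.17 to 28.9, 32.5 and 32.6 CPM (log2 change 2.97 ± 0.14), where untreated cells had 0.344 CPM.

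The largest falls by the naming rule included several of these genes and others outside the lists. IER3, an immediate-early gene that NF-kB induces, fell from 6.38, 7.87 and 11.1 to 0.406, 0.328 and 0.223 CPM (log2 change -4.70 ± 0.28, adjusted p = 6.1e-23), and untreated cells had 0.391 CPM. TMCC2, a transmembrane protein gene, fell from 46, 48.8 and 54.1 to 1.8, 1.86 and 1.61 CPM (-4.82 ± 0.12 on the log2 scale), against 3.29 CPM in untreated cells. The rule that named both genes required groups that do not overlap. The log2 change of ADAMTS14, a protease that processes procollagen, was -4.83 ± 0.33, of ANO9 -4.54 ± 0.21, of LRRC32, which holds latent TGF-beta at the cell surface, -3.99 ± 0.21 and of TNFSF10, the death ligand TRAIL, -3.97 ± 0.29.

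The inhibitors and subunits of NF-kB had a median closer to 0. Of 22 tested, 15 were lower, 2 higher and 5 did not pass (median log2 change -0.41). The members that rose were TRAF2 (log2 change 0.19) and REL (0.26), named after their values were seen. There were 4 with DESeq2 size factors, with library totals or in a fit of only the groups compared, and 1 without TNFa replicate 3. TNFAIP3, which encodes the deubiquitinase A20, went from 189.9, 189.7 and 182 to 115, 111 and 108 CPM (log2 change -0.75 ± 0.04), still far above the 9.5 CPM of untreated cells. NFKBIA, which encodes the inhibitor IkB-alpha, went from 475, 485 and 495 to 267, 275 and 284 CPM (log2 change -0.82 ± 0.03), where untreated cells had 93.9 CPM. TRAF1, an adaptor of TNF receptors, fell further (log2 change -2.94 ± 0.07), as did the atypical inhibitor BCL3 (log2 change -2.09 ± 0.06) and the kinase IKBKE (log2 change -1.74 ± 0.04), while the subunit RELA had a log2 change of -0.02 (adjusted p = 0.746).

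The windows of LTB, NFKBIA and CXCL3 are shown because the same NF-kB motif, GGGA followed by C or A and then TTTCC, on both strands, lies before a gene that fell strongly, one that fell moderately and one that rose. They are at chr6:31582376-31582675, minus strand, at chr14:35404700-35404999, minus strand and at chr4:74038640-74038939, minus strand:
LTB: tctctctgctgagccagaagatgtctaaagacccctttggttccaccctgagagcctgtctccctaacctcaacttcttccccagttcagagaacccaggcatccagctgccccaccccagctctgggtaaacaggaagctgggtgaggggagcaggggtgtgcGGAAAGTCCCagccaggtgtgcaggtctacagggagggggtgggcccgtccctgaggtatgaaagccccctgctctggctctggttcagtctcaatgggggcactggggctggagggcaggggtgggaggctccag
NFKBIA: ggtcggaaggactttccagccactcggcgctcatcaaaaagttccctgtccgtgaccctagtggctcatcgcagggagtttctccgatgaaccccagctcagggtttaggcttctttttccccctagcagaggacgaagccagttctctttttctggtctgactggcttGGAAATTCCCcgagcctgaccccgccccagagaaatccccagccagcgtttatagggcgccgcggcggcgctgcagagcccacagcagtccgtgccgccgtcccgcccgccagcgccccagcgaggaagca
CXCL3: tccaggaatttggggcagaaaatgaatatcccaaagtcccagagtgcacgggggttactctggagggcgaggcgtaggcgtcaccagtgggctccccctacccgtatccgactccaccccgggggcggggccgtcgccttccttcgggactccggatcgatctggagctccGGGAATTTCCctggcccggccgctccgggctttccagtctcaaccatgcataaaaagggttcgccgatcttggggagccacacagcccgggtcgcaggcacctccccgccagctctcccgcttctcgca
The matches began 86, 81 and 79 bases before the start. The motif was in 0.466% of tested genes with a window, in 1 of 398 genes at least 2-fold higher (0.251%), in 15 of 812 at least 2-fold lower (1.85%), in 1 of 62 at least 4-fold higher (1.61%) and in 7 of 214 at least 4-fold lower (3.27%). It was in 14.8% of the windows of the secreted and surface list and in 25% of those of the inhibitor and subunit list.

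Interferon-stimulated genes fell almost as a whole. IFIT1, which binds viral RNA, was at 94.9, 98.1 and 92.5 CPM with TNF-α and at 8.75, 9.28 and 7.63 CPM with both drugs (log2 change -3.48 ± 0.07, adjusted p = 1.88e-45), and untreated cells had 33.7 CPM. IFIT5 went from 31.9, 34.7 and 35.5 to 2.61, 1.97 and 1.73 CPM (log2 change -4.02 ± 0.13). The antiviral enzyme genes OAS2 and OAS3 had log2 changes of -1.69 and -1.35. Of 43 tested genes 42 were lower, 0 higher and 1, HERC5, did not pass (log2 change -0.15, adjusted p = 0.0662, named after its value was seen). The median log2 change was -1.23, and 26 were at least 2-fold lower. BATF2, outside the list, fell from 14.7, 16.2 and 15.5 to 0.29, 0.655 and 1.11 CPM.

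The windows of IFIT5 and IFIT1 are shown because they hold the interferon-stimulated response element, a pair of GAAA with 2 free bases between them on either strand, 3 and 2 times (chr10:89414318-89414617, plus strand, and chr10:89392373-89392672, plus strand):
IFIT5: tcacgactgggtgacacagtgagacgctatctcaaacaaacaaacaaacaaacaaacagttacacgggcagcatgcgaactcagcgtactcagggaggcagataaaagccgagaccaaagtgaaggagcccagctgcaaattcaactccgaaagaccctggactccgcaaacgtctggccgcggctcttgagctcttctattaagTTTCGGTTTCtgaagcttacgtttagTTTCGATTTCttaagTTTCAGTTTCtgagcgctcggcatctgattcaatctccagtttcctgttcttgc
IFIT1: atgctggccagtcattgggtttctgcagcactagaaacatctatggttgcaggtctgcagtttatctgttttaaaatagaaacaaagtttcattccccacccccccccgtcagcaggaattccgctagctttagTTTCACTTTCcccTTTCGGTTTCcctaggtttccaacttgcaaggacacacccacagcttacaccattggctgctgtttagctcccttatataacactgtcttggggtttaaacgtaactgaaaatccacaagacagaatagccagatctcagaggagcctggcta
The element was in 20 of 33 list genes with a window (60.6%), against 3.03% of all tested genes, 1.26% of genes at least 2-fold higher and 5.54% of genes at least 2-fold lower.

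Genes of the interferon-gamma axis and of antigen presentation fell as well. Of 33 tested genes 27 were lower, 0 higher and 6 did not pass (median log2 change -0.37), and with library totals 2 were higher. CIITA, the master regulator of MHC class II genes, went from 159.8, 158 and 159.7 to 25.4, 24.6 and 23.4 CPM (log2 change -2.70 ± 0.05), below the 54.8 CPM of untreated cells. The class II genes themselves had small log2 changes, HLA-DRA at -0.23, HLA-DPB1 at -0.13 (adjusted p = 0.0654) and the invariant chain CD74 at -0.27. The guanylate-binding protein gene GBP5 fell from 38.6, 41.5 and 38.4 to 4.75, 4.04 and 5.34 CPM (log2 change -3.07 ± 0.11), TAP1, a peptide transporter, by 1.20 and IRF1, a transcription factor, by 0.79 on the log2 scale, while B2M was at -0.16.

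In the JAK-STAT pathway the transcription factor genes STAT5A and STAT5B fell, and the value of STAT3 did not pass. STAT5A was at 534, 521 and 515 CPM with TNF-α and at 178, 195 and 199 CPM with both drugs, below the 314 CPM of untreated cells (log2 change -1.46 ± 0.04, adjusted p = 2.37e-32). STAT5B went from 119, 123 and 121 to 66.5, 64.4 and 59.5 CPM (log2 change -0.93 ± 0.04). STAT3 was at 255, 255 and 273 CPM and at 258, 257 and 259 CPM, overlapping groups with a log2 change of -0.02 ± 0.04 (adjusted p = 0.712), a value whose sign turned with DESeq2 size factors, with library totals, with no count filter, with DESeq2 and without TNFa replicate 3. JAK2, the mutated kinase of this line and a target of ruxolitinib, had a log2 change of -0.05 ± 0.06 (adjusted p = 0.555), with a sign that turned with library totals and without TNFa replicate 2, and TYK2, of the same family, one of -0.76 ± 0.04.

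Of 26 tested JAK, STAT and inhibitor genes 13 were lower, 5 higher and 8 did not pass (median log2 change -0.06), or 8 higher with library totals. The inhibitors of the pathway moved apart. SH2B3, an adaptor that restrains JAK2, fell by 1.53 on the log2 scale, the phosphatase PTPN6 by 0.79 and SOCS3 by 1.43, while SOCS2 was at 0.08 (adjusted p = 0.366) and SOCS6 rose by 0.39. Of 24 haematopoietic cytokine receptor genes 9 were lower (37.5%), 4 higher (16.7%) and 11 did not pass. Over all tested genes 29.3% were lower and 25.5% higher. IL10RA fell from 299.8, 301 and 290.1 to 79.4, 90.5 and 83.1 CPM (log2 change -1.82 ± 0.04), the interferon-gamma receptor chain IFNGR2 by 2.13 on the log2 scale and CSF2RB, a signalling chain common to several myeloid cytokine receptors, by 1.01. IFNGR1, the other interferon-gamma chain, rose by 0.55 on the log2 scale and the erythropoietin receptor EPOR by 0.79.

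Reported STAT5 targets fell on the whole, with exceptions. CISH, an inhibitor that STAT5 induces, was at 24, 20.8 and 23.8 CPM and at 7.13, 9.5 and 9.35 CPM (log2 change -1.40 ± 0.11, adjusted p = 1.07e-17). PIM2, a survival kinase, went from 60.1, 63.4 and 67.5 to 16.4, 18.2 and 19.6 CPM (log2 change -1.81 ± 0.07). Its relative PIM1 went the other way, from 40.5, 42.9 and 43.4 to 78.8, 77.7 and 77.6 CPM (log2 change 0.88 ± 0.06), with no overlap between groups in either gene. Of 25 tested genes 18 were lower, 4 higher and 3 did not pass (median log2 change -0.73). Those that rose were BCL6, a repressor that itself opposes STAT5 at shared sites (log2 change 2.78 ± 0.24, from 1.5 to 10.3 CPM), the repressor NFIL3 (1.43), PIM1 and the cell cycle inhibitor CDKN1A (0.23), NFIL3 and CDKN1A named after their values were seen. Of 24 STAT3 targets, some of which stand in other lists too, 15 were lower and 6 higher (median log2 change -0.52). MMP9, a matrix protease, had a log2 change of -3.37 ± 0.14.

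The windows of CISH and BCL6 are shown because each holds the STAT site GAS, TTCNNNGAA, 4 times, and CISH fell while BCL6 rose (chr3:50611725-50612024, minus strand, and chr3:187745419-187745718, minus strand). In BCL6, 2 of the matches lie after the start, at 11 and 37 bases:
CISH: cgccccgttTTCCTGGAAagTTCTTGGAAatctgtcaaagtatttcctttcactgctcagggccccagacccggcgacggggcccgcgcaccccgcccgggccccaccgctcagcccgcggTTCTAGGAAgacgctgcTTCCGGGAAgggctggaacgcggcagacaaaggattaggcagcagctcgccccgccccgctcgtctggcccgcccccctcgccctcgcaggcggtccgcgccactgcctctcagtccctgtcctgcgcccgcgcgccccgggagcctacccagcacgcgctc
BCL6: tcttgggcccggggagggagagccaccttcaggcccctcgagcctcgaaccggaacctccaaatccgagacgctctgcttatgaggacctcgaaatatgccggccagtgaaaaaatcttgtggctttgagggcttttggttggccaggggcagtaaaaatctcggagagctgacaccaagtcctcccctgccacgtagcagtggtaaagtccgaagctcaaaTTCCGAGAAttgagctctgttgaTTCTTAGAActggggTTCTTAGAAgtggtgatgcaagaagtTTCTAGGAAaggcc
The site was in 6.36% of tested genes with a window, in 5.53% of genes at least 2-fold higher and in 5.67% of genes at least 2-fold lower.

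MYC and the cyclin gene CCND1 fell below their level in untreated cells. CCND1, the D-type cyclin of the G1 phase, was at 172, 178 and 175 CPM with TNF-α and at 23.4, 23.2 and 21.7 CPM with both drugs (log2 change -2.94 ± 0.05, adjusted p = 1.19e-51), and untreated cells had 106 CPM. MYC was at 329.9, 323 and 327 CPM and at 126, 136 and 137 CPM (log2 change -1.30 ± 0.04, adjusted p = 9.16e-39), against 465 CPM in untreated cells. Of 46 ribosome biogenesis and RNA polymerase I genes, many of them MYC targets, 43 were lower, 1 higher and 2 did not pass (median log2 change -0.39). Log2 changes were -1.41 ± 0.06 in RRS1 of the large subunit, -0.85 ± 0.05 in the polymerase subunit POLR1B and -0.74 ± 0.03 in the box C/D protein NOP56, and the one that rose was UBTF (0.16), a polymerase I factor named after its value was seen. Of 49 cytosolic ribosomal protein genes 12 were lower and 1 higher, all within 0.25 on the log2 scale. The lower count was 2 with library totals, 6 with DESeq2 size factors, 5 with DESeq2, 4 without combo replicate 1, 7 without TNFa replicate 1 or 3 and 20 without combo replicate 3. The higher count was 4 with library totals and 0 without any single library of the 6.

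Genes that report ERK signalling were split. Of 36 ERK feedback and immediate-early genes 21 were lower, 4 higher and 11 did not pass (median log2 change -0.45). DUSP6, a phosphatase of ERK, fell by little, from 75, 72 and 73.8 to 66.4, 60.4 and 62 CPM (log2 change -0.23 ± 0.05), while DUSP7, of the same family, had a log2 change of -1.96 ± 0.07 and the immediate-early gene JUNB of -1.87 ± 0.05. EGR1, another immediate-early gene, did not pass (log2 change 0.14, adjusted p = 0.606). Those that rose were ATF3, given above, KLF4 (log2 change 1.67), FOSL1 (0.33) and IER5 (0.18), the last 3 named after their values were seen. Cell cycle genes moved by little: of 31 DNA replication genes 18 were lower and 7 higher, with log2 changes of PCNA at -0.36 and E2F1 at 0.41, and of 29 mitosis genes 12 were higher and 8 lower, or 5 lower with library totals, with HMMR at 0.73 and MKI67 at -0.35.

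Transcription factors of the blood lineages fell as a group. GATA2, a factor of stem and progenitor cells (ENSG00000179348, chr3:128479427-128493185, minus strand), was at 553, 553 and 547 CPM with TNF-α and at 120.2, 137 and 127 CPM with both drugs (log2 change -2.10 ± 0.04, adjusted p = 1.61e-50). SPI1, which encodes the myeloid factor PU.1, went from 218, 221 and 215 to 77.3, 81.1 and 72.7 CPM (log2 change -1.50 ± 0.04). GFI1B, a transcriptional repressor that acts in the erythroid and megakaryocyte lineages, went from 228, 230.2 and 248 to 69, 77.6 and 68.9 CPM (log2 change -1.71 ± 0.04). The groups did not overlap in any of these, and all 3 were below untreated cells, which had 485, 132 and 308 CPM (adjusted p = 2.07e-48, 1.81e-24 and 7.93e-45).

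Of 24 such factors 18 were lower, 0 higher and 6 did not pass (median log2 change -0.96), and 10 were at least 2-fold lower. With library totals, and without combo replicate 3, 1 was higher. GATA2 and SPI1 also make up part of the myeloid and progenitor marker sum given above, so that sum is no separate measure of these genes. The log2 change of LYL1 was -1.77, of IKZF1, which encodes Ikaros, -1.43, of TAL1 -1.08, of NFE2 -1.52 and of GATA1 -0.76, while RUNX1 (-0.05, adjusted p = 0.313) and MEIS1 (-0.08, adjusted p = 0.0693) did not pass. Lineage products moved in both directions. Of 18 megakaryocyte, platelet and erythroid genes 12 were lower, 4 higher and 2 did not pass. The higher count was as low as 3 under the alternatives and without single libraries. GP1BA, a platelet receptor for von Willebrand factor, fell from 275, 279.5 and 279.6 to 79.5, 83.2 and 86.5 CPM (log2 change -1.74 ± 0.04), the transferrin receptor TFRC by 0.71 on the log2 scale and the integrin ITGA2B by 0.25. The globin gene HBD had a log2 change of 1.40 (adjusted p = 0.0476, named after its value was seen), close to the threshold. The globin genes HBA1, HBA2 and HBB had too few counts to test.

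Cell death genes moved in both directions. PMAIP1, which encodes the pro-apoptotic protein NOXA, rose from 45.6, 45.9 and 44.7 to 187, 193 and 190.2 CPM (log2 change 2.07 ± 0.05, adjusted p = 5.84e-44). The survival genes BCL2L1, which encodes BCL-XL, and BCL2A1 fell from means of 98.9 and 14.9 to 38.6 and 2.68 CPM (log2 changes -1.36 ± 0.05 and -2.48 ± 0.15). MCL1, the partner that NOXA binds, had a log2 change of -0.15 ± 0.04, a call that was lost with library totals (adjusted p = 0.0897), and BCL2 was at -0.02 (adjusted p = 0.851). BMF, a pro-apoptotic member, fell from 45.4, 41.8 and 42.2 to 22.1, 23.3 and 20.8 CPM (log2 change -0.97 ± 0.07). Of 30 tested cell death genes 15 were lower, 6 higher and 9 did not pass, or 10 higher with library totals, and the receptor genes FAS and TNFRSF10B had log2 changes of -1.11 and -0.61. Of 23 p53 targets 10 were higher and 9 lower, with log2 changes of SESN1 at 0.75, CDKN1A at 0.23 and BTG2 at -1.17.

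Most genes of autophagy receptors and lysosomes rose. SQSTM1, the receptor p62, went from 432, 446 and 458 to 1319, 1372 and 1281 CPM (log2 change 1.57 ± 0.03, adjusted p = 2.93e-46), and untreated cells had 180.1 CPM. The log2 change of GABARAPL1, an ATG8 protein, was 2.50 ± 0.20, of MAP1LC3B, which encodes LC3B, 0.86 ± 0.05 and of the initiating kinase ULK1 1.18 ± 0.06. Of 24 genes 16 were higher, 2 lower and 6 did not pass (median log2 change 0.49), and those that fell were OPTN (log2 change -0.45) and ATG16L1 (-0.21), named after their values were seen. With library totals 1 was lower. Of 28 glycolysis and hypoxia-response genes 16 were lower and 8 higher. The glucose transporter SLC2A3 fell from 61.7, 59.8 and 62.4 to 17.4, 19.6 and 24.1 CPM (log2 change -1.59 ± 0.08) and the hexokinases HK1 and HK2 by 0.54 and 0.52 on the log2 scale, while the hypoxia-induced EGLN3 rose by 1.23.

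Transcripts of the mitochondrial chromosome were lower, apart from its ribosomal RNAs. Their share of all counts was 5.12% ± 0.151 (SD, n = 3) with TNF-α and 4.30% ± 0.143 (SD, n = 3) with both drugs. The exact two-sided permutation test gave p = 0.1, the smallest that 3 against 3 libraries allow. Of 13 mitochondrial protein genes 12 were lower and 0 higher, with log2 changes of -0.40 ± 0.03 in MT-CO1, a subunit of cytochrome oxidase, and -0.81 ± 0.05 in MT-ND2 of complex I. MT-ND6 did not pass (log2 change -0.14, adjusted p = 0.0947). Of 18 tested transfer RNA genes 15 were lower and 0 higher. MT-RNR1, the RNA of the small ribosomal subunit, rose from 869 ± 70.8 to 1516 ± 58.8 CPM (SD, n = 3), a log2 change of 0.80 ± 0.06 (adjusted p = 6.86e-09), and MT-RNR2 of the large subunit had a log2 change of 0.03 (adjusted p = 0.553). With MCL alone MT-RNR1 was at 934 CPM and with ruxolitinib alone at 923 CPM. The rRNA genes were named after their values were seen, and how the library preparation treats short or unpolyadenylated RNA was not tested.

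**Figure D4:**
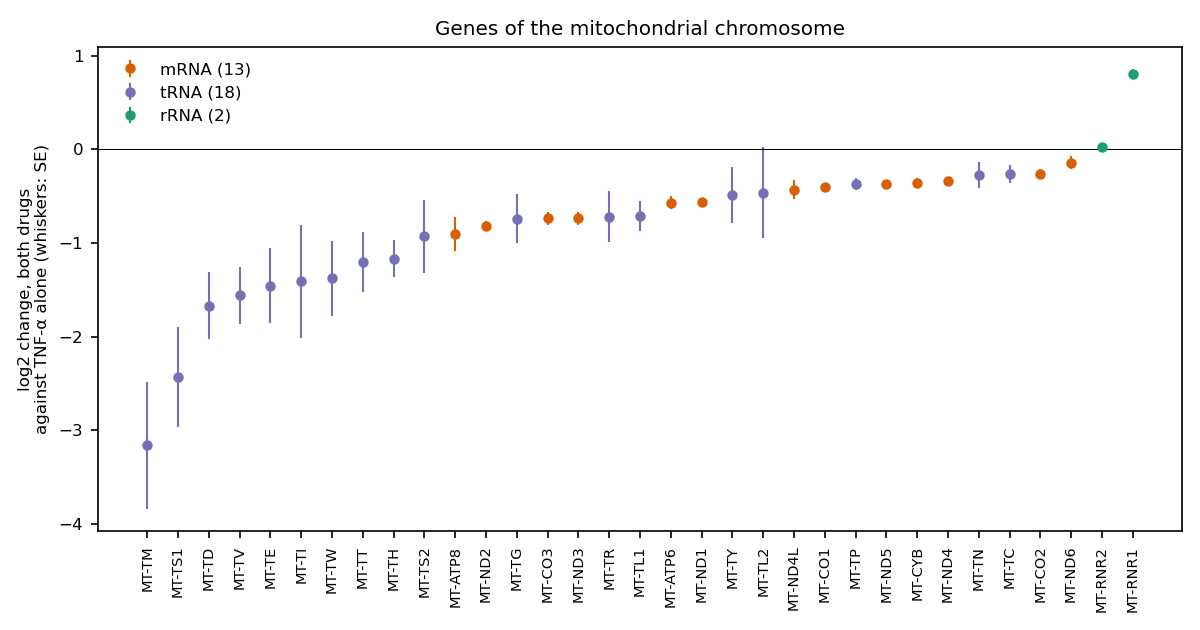
Log2 change with both drugs against TNF-α alone for the 33 tested genes of the mitochondrial chromosome (vertical axis, whiskers SE), ordered by value and coloured by kind of RNA. MT-RNR1 is the only point well above 0, at 0.80, and most messenger and transfer RNAs lie below.

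Several non-coding genes were among the largest changes. NMRAL2P, a pseudogene, went from 0.132, 0.300 and 0.373 to 29, 29.3 and 26.4 CPM (log2 change 6.66 ± 0.26). SLC7A11-AS1, which overlaps SLC7A11, rose by 5.23 on the log2 scale and MIR22HG, the host transcript of a microRNA, by 2.50. AC007278.1 fell by 4.30 on the log2 scale and AL445490.1 by 4.82. Of 735 tested long intergenic RNAs 126 were higher (17.1%) and 142 lower (19.3%). Of 1070 pseudogenes 139 were higher (13%) and 109 lower (10.2%). All of these shares were below the 25.5% higher and 29.3% lower over all tested genes.

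The single-drug groups show how these levels compare with each drug alone. Comparisons of both drugs with MCL or with ruxolitinib use the same 3 libraries of both drugs as the comparison above, and changes of each single drug against TNF-α use the same 3 TNF-α libraries, so values are given side by side. Against MCL, both drugs gave 3170 genes higher (19.6%) and 3553 lower (22%), or 3764 and 2976 with library totals. Against ruxolitinib they gave 4012 higher (24.8%) and 4335 lower (26.8%), or 4719 and 3689 with library totals. HMOX1 had 63.7 ± 4.71 CPM with MCL, 0.529 ± 0.317 CPM with ruxolitinib and 539 ± 26.2 CPM with both (SD, n = 3). The level with both drugs was above that with MCL by a log2 difference of 3.08 ± 0.06 (adjusted p = 4.68e-26). The genes named for the strongest changes were chosen on the same libraries of both drugs, which leans their values against each single drug in the same direction. The 12 protein-coding genes of the strongest rises were all higher than with ruxolitinib, and 10 of them were higher than with MCL. NQO1 (log2 difference 0.08, adjusted p = 0.576) was one of those that did not pass against MCL. The 12 of the strongest falls were all lower than with either drug alone.

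The log2 changes with MCL alone and with ruxolitinib alone were added and the sum was taken from the log2 change with both drugs. This difference is called the non-additive effect. It passed above 0 in 1962 genes (12.2%) and below 0 in 2071 (12.8%), or in 2168 and 1889 with library totals. For HSPA1B the log2 changes were 1.99 with MCL, -0.39 with ruxolitinib and 4.41 with both, a non-additive effect of 2.81 ± 0.08 (adjusted p = 3.11e-38). CHAC1 had log2 changes of 1.74, 0.14 and 3.25 in the same order and a non-additive effect of 1.38 ± 0.10. Of the 32 heat shock genes 19 passed above 0 and 1 below, and of the 31 ATF4 genes 21 and 2. In these lists ruxolitinib alone lowered 12 and 11 members (10.6% of all tested genes were lower) and raised 1 and 3 (5.15%), while MCL alone raised 22 and 24 (10.9%) and lowered 0 and 2 (15.1%). NRF2 genes were more even, with 15 above and 7 below.

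**Figure D5:**
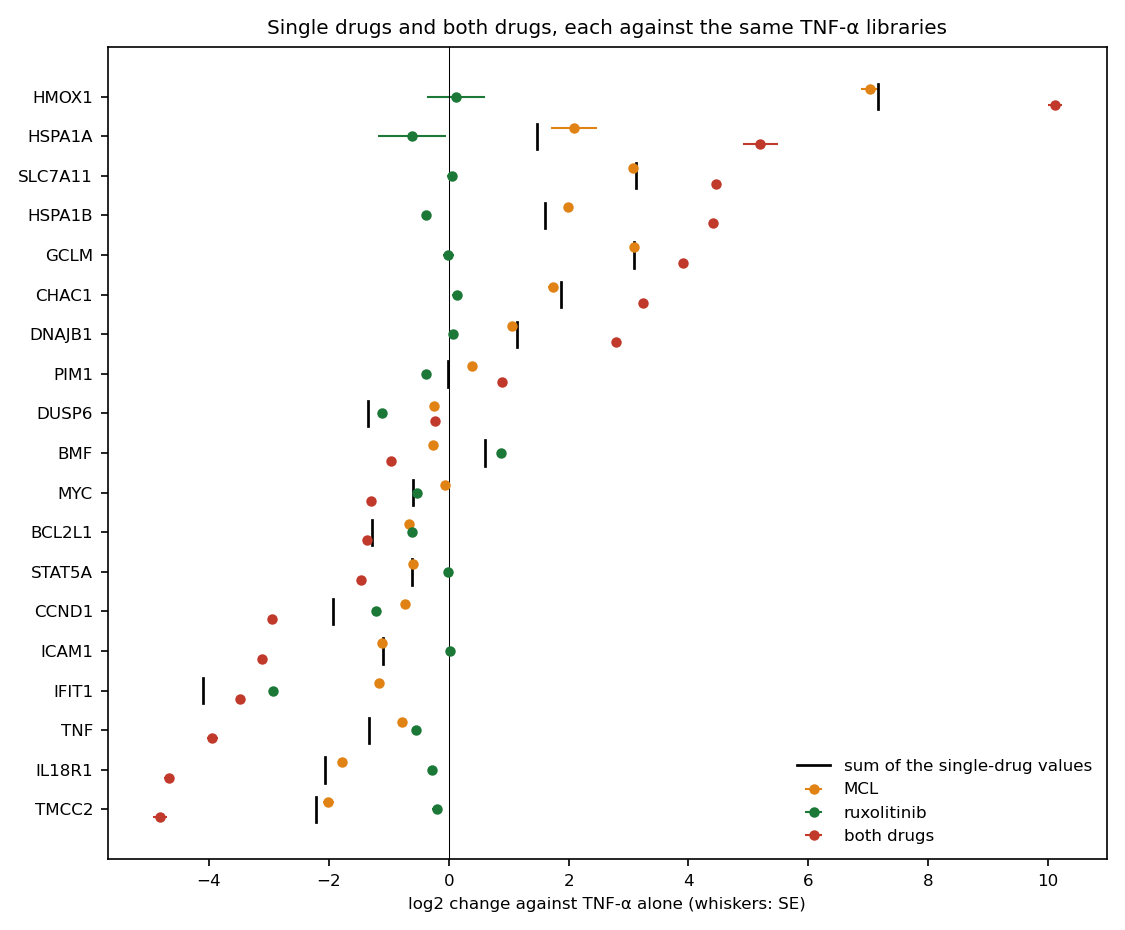
Log2 change against TNF-α alone (horizontal axis, whiskers SE) with MCL (orange), ruxolitinib (green) and both drugs (red) for 19 genes, with the sum of the single-drug changes as a black bar. The red points lie beyond the bar for HMOX1, HSPA1B, CCND1, ICAM1, TNF and IL18R1, near it for BCL2L1, and between the bar and 0 for DUSP6 and IFIT1.

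Among genes that fell, TNF had log2 changes of -0.78 in the MCL group, -0.55 in the ruxolitinib group and -3.95 with both drugs, a non-additive effect of -2.61 ± 0.12 (adjusted p = 2.71e-26). ICAM1 had log2 changes of -1.11, 0.02 and -3.12 and a non-additive effect of -2.03 ± 0.06. Ruxolitinib alone thus left ICAM1 near its TNF-α level (adjusted p = 0.776). Of the 33 secreted and surface genes 24 passed below 0 and 3 above, and of the 24 lineage factors 17 and 2. STAT5A had log2 changes of -0.60, -0.02 and -1.46 and a non-additive effect of -0.84 ± 0.06. For MYC they were -0.06, -0.53 and -1.30, with a non-additive effect of -0.71 ± 0.05. Interferon-stimulated genes went the other way, 17 above 0 and 1 below. IFIT1 had log2 changes of -1.16, -2.94 and -3.48 and a non-additive effect of 0.62 ± 0.11, so that the fall was smaller than the sum. For BCL2L1 (non-additive effect -0.08 ± 0.07, adjusted p = 0.461) a difference from the sum was not detected.

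In some genes the change with both drugs differed in direction or size from that with ruxolitinib alone. BMF rose with ruxolitinib (log2 change 0.87, adjusted p = 3.12e-18), fell with MCL (-0.26, adjusted p = 0.00159) and fell with both (-0.97), a non-additive effect of -1.57 ± 0.09. PIM1 fell with ruxolitinib (log2 change -0.39), rose with MCL (0.38) and was higher still with both (log2 difference from MCL 0.50, adjusted p = 1.45e-11). DUSP6 fell by 1.11 on the log2 scale with ruxolitinib, by 0.24 with MCL and by 0.23 with both (non-additive effect 1.12 ± 0.08, adjusted p = 5.71e-19). HSPA6, an inducible HSP70, was lower with each drug (log2 changes -0.62, adjusted p = 0.027, and -0.98, adjusted p = 0.000819) and higher with both (1.10, adjusted p = 7.71e-07).

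Against untreated cells, both drugs gave 4569 genes higher (28.3%) and 4706 lower (29.1%), or 5063 and 4242 with library totals. TNF-α alone had raised 21 of the 22 inhibitor and subunit genes of NF-kB and 31 of the 33 secreted and surface genes, where 14.1% of all tested genes were higher and 12.5% lower, and 37 of the 43 interferon-stimulated genes. With both drugs added, 20 of the 22 inhibitors and subunits were still above untreated cells and 1 below, with a median log2 difference of 1.08. Of the 33 secreted and surface genes 15 were above and 6 below (median 0.81). ICAM1 was still above by 1.22 on the log2 scale and CXCL10 by 4.63, while TNF was below them (log2 difference -2.45 ± 0.11). Of the 43 interferon-stimulated genes 32 were below untreated cells and 2 above (median -0.49), and of the 24 lineage factors 22 were below and 2 above.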

How the data were processed

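RNA sequencing measured UKE-1 cells in 15 libraries, 3 in each of 5 groups. The authors deposited 1 table of raw read counts per gene, with 58735 genes and no normalization. Per the submitters' processing notes the tools were featureCounts 1.5.0-p3, HISAT2 2.0.5 and DESeq2 1.16.1 and the builds mm10 and hg38, with no role stated. The coordinates are those of GENCODE release 29 for 58735 of 58735 genes. How strand and reads with several matches were counted is not stated there. The columns named Control were taken as the untreated cells.

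Counts were tested with edgeR 4.0.16 (R 4.3.3, limma 3.58.1) by the robust quasi-likelihood F-test. A minimum count of 10 by group left 16146 genes, which hold at least 99.848% of each library's counts. TMM factors scaled the libraries, and 1 coefficient for each group was fitted over all 15, so that all groups share 1 estimate of spread. P-values were adjusted by Benjamini-Hochberg over the 16146 genes, and 0.05 was the threshold. Standard errors come from the log2 change and its F value. The non-additive effect is a contrast of the same model.

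Genes named by rule are the 12 highest and 12 lowest protein-coding changes that reach 5 CPM on average in either group. Their groups do not overlap. The rule adds up to 6 passing members of each list by p and a panel of genes of the treated pathways. It also adds 6 genes in each direction for each further comparison and 5 non-coding genes in each direction. Further list members, such as GCLC, FTL, VARS, EPOR and EGLN3, are given outside this rule, and not all of them are marked as such. The lists and the panel were chosen with earlier results of these data known. Promoter windows are from RefSeq (GRCh38.p14), matched for 10950 tested genes. The alternatives were DESeq2 (1.42.0) and its size factors, library totals, no count filter, a minimum count of 30, a fit of only the groups compared, the replicate number as a block, and leaving out each library. The fit was tested on simulated counts. Some genes are not reported here.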

Additional observations from a re-analysis of the deposited data

Results flagged for a closer look

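In the genes below, the change with both drugs differed from the sum of the changes with MCL and with ruxolitinib, by an adjusted p under 0.05 in edgeR's quasi-likelihood test of that difference. Values are the non-additive effect on the log2 scale, with 3 libraries in each group. All of these comparisons use the same TNF-α libraries.

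Above 0 were several chaperone and stress genes. The inducible HSP70 genes HSPA1A, HSPA1B and HSPA6 had effects of 3.72, 2.8 and 2.69, and the co-chaperone gene DNAJB1 had 1.67. The antioxidant genes HMOX1, SLC7A11 and GCLM had 2.96, 1.32 and 0.82. The ATF4 pathway genes ATF3, DDIT3 and CHAC1 had 1.59, 1.48 and 1.38. The immediate-early gene EGR1 had 1.37, the ERK phosphatase gene DUSP6 had 1.12, the kinase gene PIM1 had 0.89, the interferon-stimulated gene IFIT1 had 0.62 and the survival gene MCL1 had 0.2. The GITR ligand gene TNFSF18 had 2.6.

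EIF3CL had an effect of 4.48 (adjusted p = 0.0211), which was 2.53 without TNFa replicate 3 (adjusted p = 0.0145). It did not pass without MCL replicate 3 (adjusted p = 0.051), without ruxolitinib replicate 2 (adjusted p = 0.0506) or without combo replicate 1 (adjusted p = 0.0514). Its TNF-α libraries had 6.25, 6.67 and 61.7 CPM, and reads can be split between EIF3CL and its near-identical copy EIF3C, so its values are uncertain.

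Below 0 were RNF223 at -4.33, WNT10A at -2.7, TMCC2 at -2.6 and ANO9 at -2.55. With both drugs RNF223 had only 1, 2 and 3 counts and WNT10A 8, 6 and 7, so the size of their effects is uncertain. Of the TNF-α response, IL18R1 was at -2.61, TNF at -2.61, VCAM1 at -2.17, ICAM1 at -2.03, NFKBIA at -0.66, TNFAIP3 at -0.57 and CXCL10 at -0.41. Of the JAK-STAT genes and their targets, CCND1 was at -1.0, STAT5A at -0.84, PIM2 at -0.74, MYC at -0.71, IRF1 at -0.44, CISH at -0.4 and STAT5B at -0.28. The pro-apoptotic gene BMF was at -1.57, NQO1 at -0.68 and TXNIP at -0.48. CISH did not pass without TNFa replicate 2, MCL replicate 2, ruxolitinib replicate 1 or 3, or combo replicate 1 (adjusted p between 0.0557 and 0.193). NQO1 did not pass without TNFa replicate 1 or 3 or ruxolitinib replicate 2 (adjusted p between 0.0543 and 0.133), nor IRF1 without combo replicate 3 (adjusted p = 0.0508).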

How the results depend on the processing

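Counts of genes higher than with TNF-α lay between 3872 and 5091 under the alternatives in scaling, filter, tool and design and between 3814 and 3959 without single libraries. Lower counts lay between 3900 and 4768 and between 4349 and 4467. Same-numbered libraries of different groups had deviations correlated between -0.055 and 0.06, and differently numbered ones between -0.087 and 0.086. No pairing by replicate number was seen, which does not show that there was none. The replicate block gave 4122 higher and 4768 lower. At least 2-fold higher were 398 genes with a minimum count of 30 in place of 10, against 632, where fewer genes were tested.

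Reversed values were few. JAK2, which did not pass, was at 0.0287 with library totals, and without single libraries between -0.0838 and 0.0095, or for its non-additive effect between -0.0971 and 0.0209. STAT3, which did not pass either, was at 0.0061 with DESeq2 size factors and with DESeq2, at 0.0593 with library totals, at 0.0042 with no count filter, and without single libraries between -0.0308 and 0.0194. EIF3CL ranged from -0.1929 to 2.209 without single libraries, and it passed without TNFa replicate 3 only (edgeR adjusted p = 0.0012). The cause was not tested. Among genes named by rule MCL1, RPL23, RPL8, RPS16 and RPS7 no longer passed with library totals, and RPL8 and RPS16 no longer passed with DESeq2. RPL8 was also lost without TNFa replicate 1 or 3 or combo replicate 1, and RPS16 without combo replicate 1. MT1X was lost without TNFa replicate 3, combo replicate 1 or combo replicate 2. The non-additive effect of CISH no longer passed with DESeq2 (adjusted p = 0.0511).

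At this depth small changes in well-counted genes pass, so passing does not mean a large change. Genes with few counts, such as BIK with 72 counts against 6 and IL2RA with 45 against 7 over 3 libraries, are known less well. The groups hold 3 libraries of 1 cell line at 1 time. Whether TNF-α stimulation and drug treatment were repeated for each library is not known, and RNA per cell is not in the counts, so that all levels are relative to the rest of the counted RNA.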

Other observations

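Genes of cholesterol export and synthesis moved in several directions with both drugs. ABCA1, which exports cholesterol to lipoproteins, went from means of 1.88 to 16.4 CPM (log2 change 3.12 ± 0.17, edgeR adjusted p = 1.99e-24), while ABCG1, of the same family, went from 3.24 to 0.577 CPM (log2 change -2.48 ± 0.31, edgeR adjusted p = 2.95e-10). Of 27 tested genes of sterol and lipid synthesis 14 were higher and 5 lower, or 3 lower with library totals or without TNFa replicate 1. Of 13 tested histone genes 8 were higher and 1 lower, and the one that was lower did not pass without TNFa replicate 3 or without combo replicate 1. Of 5 tested genes of metallothioneins and zinc homeostasis 2 were higher and 2 lower, or 1 lower without TNFa replicate 3, combo replicate 1 or combo replicate 2. The higher ones were MTF1 (log2 change 0.41) and SLC30A1 (0.30), which are not metallothioneins. The lower ones were the metallothioneins MT2A (-0.56) and MT1X (-0.53).

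Gene classes in the authors' annotation columns had different shares of calls. Protein-coding genes were higher in 28.7% and lower in 32.8% of 12455 tested, and antisense genes in 15.4% and 19% of 1109. Of 1000 transcription factor genes by the deposited family column 31.7% were higher and 32.7% lower, and 10.2% were at least 2-fold lower, against 7.64% of protein-coding genes with no family. Of 43 bHLH factors 12 were higher (27.9%) and 24 lower (55.8%). Among families of at least 10 tested genes the lower share ran from 7.69% of 13 ARID factors to 69.2% of 13 THR-like factors. It was 60.9% of 23 ETS factors. Of 468 C2H2 zinc finger genes 156 were higher (33.3%) and 117 lower (25%). Among protein-coding genes the share that was higher was 20.2%, 27.6%, 31.7% and 35.1% from the shortest to the longest of 4 equal classes by the table's gene length. The share that was lower was 33.7%, 33.7%, 32.3% and 31.6%. In 4 equal classes by level, from lowest to highest, the higher share was 15.2%, 32.6%, 37.7% and 29.2%. Length and level were not separated. Of 195 tested genes of chromosome 21, 40 were higher (20.5%) and 78 lower (40%), against 25.5% and 29.3% of all tested genes. At least 2-fold lower were 17.4% of the 195, against 8.39% of all tested genes. This share ran from 3.83% (X) to 13.3% (chromosome 14) on the other nuclear chromosomes. Chromosome 21 was named after its value was seen. No test compared these classes.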
